A study of Capra hircus with 3 samples.

Results

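CRABP1 and ALDH1A3 are 2 of the 16739 genes in a single-cell expression table of fetal goat dorsal skin, and both were chosen by name. CRABP1 encodes a cellular binding protein for retinoic acid, and ALDH1A3 encodes a dehydrogenase that makes retinoic acid from retinal. Every value below is from these 2 rows of the table, in the cells of each stage, unless another gene is named. The questions were how dermal cells compared with cells of the hair matrix, and whether the same cells held both transcripts.

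The skin came from fetuses of Northern Shaanxi White Cashmere goats at embryonic days 60, 90 and 120 (E60, E90 and E120). The study's design text places follicle induction at E60, organogenesis at E90 and cytodifferentiation at E120. Each stage was 1 droplet library (10x 3′ chemistry), pooled from cells of 2 or more fetuses, so the spread among fetuses is unknown. Whole skin was dissociated with collagenase IV at E60 and E90, whereas E120 cells came from follicles picked out after collagenase and then dissociated with TrypLE. In comparisons with E120, stage and dissociation cannot be told apart. The labels give no genotype, treatment or sex of the fetuses.

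Retinoic acid is made inside cells from vitamin A, first by dehydrogenases that turn retinol into retinal and then by ALDH1A enzymes that oxidise retinal. CRABP1 and its relative CRABP2 hold retinoic acid in the cytoplasm, CYP26 enzymes break it down, and nuclear receptors of the RAR and RXR families act on target genes once it is bound. In skin, retinoids are known to act on epidermal differentiation and on the hair follicle. The dermal papilla is the mesenchymal core of the follicle bulb, and the hair matrix is the dividing epithelium that surrounds it and gives rise to the shaft and the inner root sheath.

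The table held 6849, 6931 and 6896 cells of E60, E90 and E120, with medians of 8579, 3714 and 13064 unique molecular identifiers (UMIs) per cell. No cell had under 2475 UMIs. Between 9 and 13 cell barcodes were shared by each pair of libraries. Cells were clustered without the retinoid genes, and the cells of 1 library in 1 cluster are called a group. There were 41 groups of at least 50 cells, and 36 of them could be named from marker genes. A group's level is its summed UMIs scaled to 1000000 (CPM), with exact 95% intervals that cover counting error only. CPM of CRABP1 and CPM of ALDH1A3 were not compared with each other, since transcript length and capture differ between genes. No E60 group of that size was epithelial-like, so dermal and epithelial cells were compared at E90 and E120 only. The largest E90 group (3829 cells, cluster 0) stayed unnamed because pigment cell genes (MLANA, PMEL) and mitochondrial genes led it above its dermal markers, and the E90 library had a median of 11.1% mitochondrial counts against 4.52% at E60 and 5.26% at E120.

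Over whole libraries the 2 genes went in opposite directions between E60 and E120. The E60 library had 3934 CPM of CRABP1 (3919 to 3950), E90 had 610 CPM (601 to 619) and E120 had 238 CPM (235 to 241). For ALDH1A3 the levels were 18.6 CPM (17.6 to 19.7), 6.47 CPM (5.60 to 7.45) and 255 CPM (252 to 258). The CRABP1 level was thus lower at each later stage, with a log2 ratio of E120 over E60 of -4.04, whereas the ALDH1A3 ratio was 3.71. Both passed a 4-fold difference, as did 11.7% of the 5982 genes compared toward lower and 8.12% toward higher levels at E120. Between E60 and E90 only CRABP1 passed 4-fold, at a log2 ratio of -2.69, as did 2.33% of 6278 genes toward lower and 7.23% toward higher levels. Between E90 and E120 only ALDH1A3 did, at 5.10, as did 2.67% of 6357 genes toward higher and 10.4% toward lower levels. Ratios over whole libraries do not separate fewer cells of a type from a lower level in each cell. The E120 follicle preparation held 206 dermal-like cells against 3818 at E60, so the same ratios were taken within classes of cells.

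**Figure D1:**
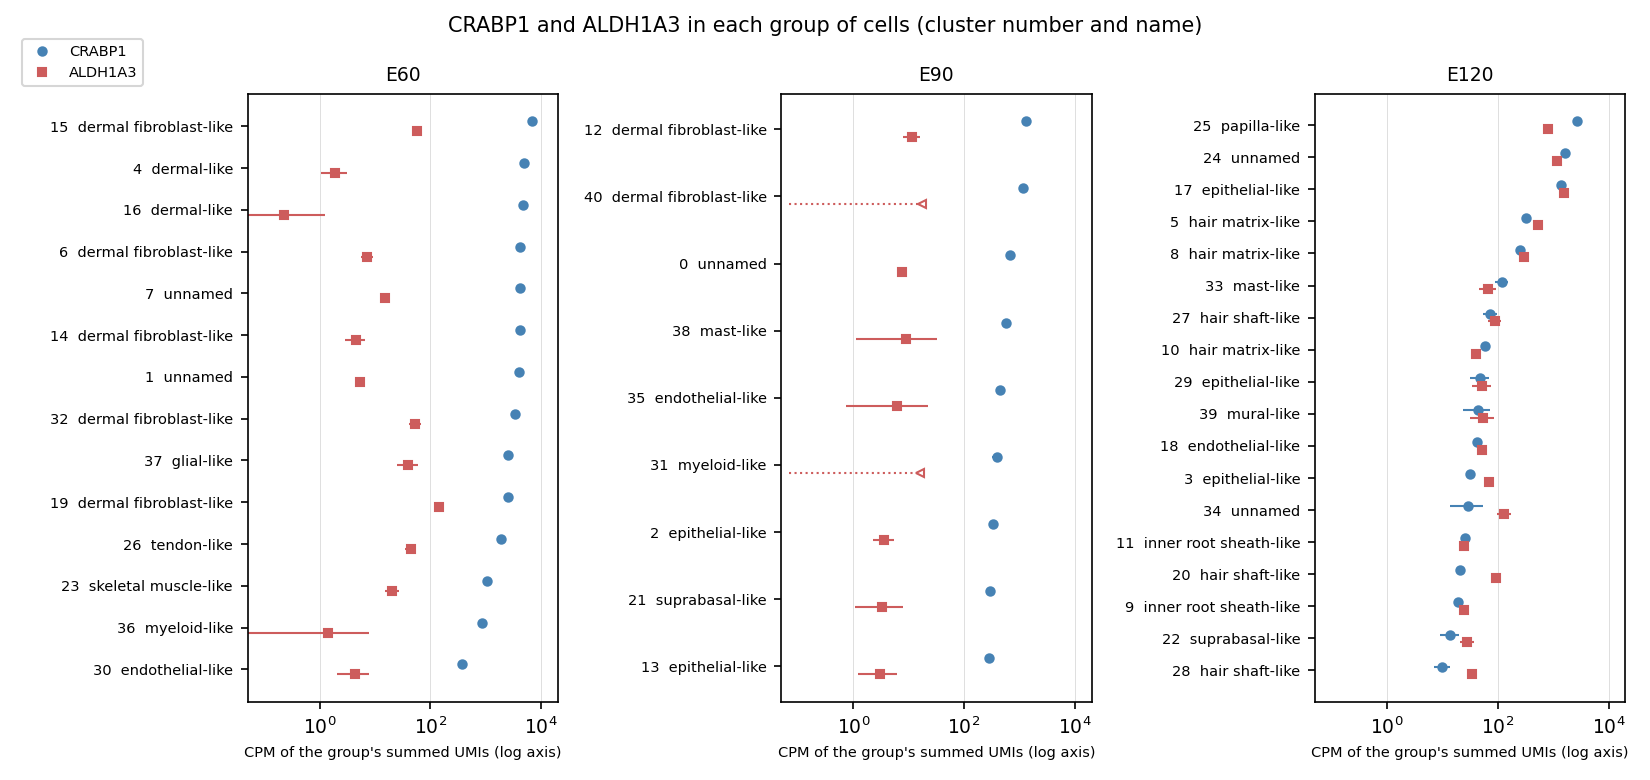
Levels of CRABP1 (circles) and ALDH1A3 (squares) in the 41 groups of at least 50 cells, ordered by CRABP1 within each library. The x axis is CPM on a log scale, lines are exact 95% Poisson intervals, and open arrowheads mark the upper limit where no UMI was counted. At E60 the CRABP1 level stayed above 374 CPM outside the endothelial-like group while ALDH1A3 spanned 0.229 to 144 CPM, and at E120 both genes stood highest in clusters 25, 24 and 17.

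At E60, CRABP1 was in nearly every dermal-like cell and ALDH1A3 was in few. In the 3818 dermal-like cells CRABP1 was at 4396 CPM (4374 to 4417) and 97.7% of cells had a UMI of it. ALDH1A3 was at 25.7 CPM (24.1 to 27.4) and 13.4% of cells had a UMI. A further 2453 cells of clusters 1 and 7 were closest to the dermal class but stayed unnamed, with CRABP1 at 4063 CPM (4036 to 4090) and ALDH1A3 at 8.00 CPM (6.84 to 9.29).

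The dermal-like class of E60 was made of 8 groups: 5 fibroblast-like groups, clusters 4 and 16, closest to the condensate and papilla markers, and the tendon-like cluster 26, whose marker list was counted under the dermal class. Without cluster 26 its level was 4519 CPM of CRABP1 and 24.8 CPM of ALDH1A3. Each gene was highest in a different group. CRABP1 was highest in cluster 15 (477 cells led by SEMA3C, SMOC2 and MFAP5), at 6771 CPM (6689 to 6854), where ALDH1A3 was at 56.9 CPM (49.6 to 65.0). ALDH1A3 was highest in cluster 19 (353 cells led by the chemokine gene CCL11, CAPN6, SFRP1 and DLK1), at 144 CPM (132 to 158), where CRABP1 was at 2482 CPM (2429 to 2536). Cluster 19 had the lowest CRABP1 level of the 8 groups after cluster 26, and the highest ALDH1A3 level of all 14 groups.

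The DKK1-expressing dermal-like groups were the reverse. Cluster 4 (1058 cells led by DKK1, a secreted WNT inhibitor, and CXCL14) had CRABP1 at 4998 CPM (4950 to 5046) and ALDH1A3 at 1.90 CPM (1.08 to 3.08). In cluster 16 (438 cells, with replication genes and DKK1) CRABP1 was at 4715 CPM (4651 to 4780) and ALDH1A3 at 0.229 CPM (0.00579 to 1.27), from 1 UMI. These levels of ALDH1A3 were at or below the 4.28 CPM (2.05 to 7.88) of endothelial-like cells of the same library. Cycling dermal-like cells of clusters 6 and 14 differed little from the unnamed clusters 1 and 7 in CRABP1, with 4 levels between 4033 and 4188 CPM and neighbouring intervals that overlapped.

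The tendon-like group of E60 (cluster 26, 189 cells led by COL2A1 and TNMD) had CRABP1 at 1897 CPM (1833 to 1963) and ALDH1A3 at 44.1 CPM (34.8 to 55.2). Outside the dermal-like class, the glial-like group (58 cells) had 2560 CPM (2428 to 2698) and 40.0 CPM (25.1 to 60.5). Skeletal muscle-like cells had 1047 CPM (1006 to 1089) and 20.4 CPM (15.1 to 26.9). Across the order of the 14 groups, 9 of the 13 neighbouring pairs were apart in CRABP1 beyond their intervals and 2 of 13 in ALDH1A3, which was counted from 1 to 486 UMIs a group. How often neighbouring pairs were apart over all genes was not counted.

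Free RNA was set beside the E60 levels. Endothelial-like cells were taken as a reference, and whether they make CRABP1 themselves was not tested. They held it at 374 CPM (350 to 400), or 8.51% of the dermal level. Of them, 78.4% had a UMI at a median depth of 16016 UMIs per cell, against 8774 in dermal-like cells. The summed dermal fibroblast markers stood at 12.9% of their dermal level in the same cells. Myeloid-like cells had 19.7% of the dermal CRABP1 level and 13.3% of the dermal marker level. A share of E60 cells with a CRABP1 UMI therefore says little by itself, and after thinning every cell to 2000 UMIs it was 94.7% of dermal-like, 46.4% of myeloid-like and 30.9% of endothelial-like cells.

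At E90 both genes were higher in dermal-like than in epithelial-like cells, but the epithelial values were not above those of endothelial-like cells. CRABP1 was at 1326 CPM (1287 to 1365) in 578 dermal-like cells and 314 CPM (303 to 325) in 2182 epithelial-like cells, a fold of 4.23 (4.04 to 4.42) and a log2 ratio of 2.08. ALDH1A3 was at 10.7 CPM (7.55 to 14.8) and 3.44 CPM (2.40 to 4.79), from 37 and 35 UMIs, a fold of 3.11 (1.91 to 5.09) and a log2 ratio of 1.40. CRABP1 passed a 4-fold difference and ALDH1A3 did not, where 3.53% of 6800 genes were at least 4-fold higher in dermal-like cells. Endothelial-like cells of E90 had CRABP1 at 451 CPM (381 to 530), above the epithelial level, and the dermal fibroblast markers were at 19.7% of their dermal level in epithelial-like cells against 23.7% for CRABP1. The CRABP1 log2 ratio was 1.04 with each cell classed by its own marker counts, 1.79 with equal weight for each cell and 1.81 with scaling by the median of ratios, all under 4-fold, and with a pseudocount of 10 CPM the ALDH1A3 ratio was 0.62.

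Finer clustering of E90 gave dermal-like groups that differed in these genes. A fibroblast-like group led by COCH, FNDC1 and PENK (298 cells) had CRABP1 at 1677 CPM (1621 to 1734) and ALDH1A3 at 4.43 CPM (2.02 to 8.41). A papilla- or condensate-like group led by BMP3, SPON1 and INHBA, with SOX18 (260 cells), had CRABP1 at 747 CPM (700 to 795) and ALDH1A3 at 24.5 CPM (16.7 to 34.6). Between these groups, the one with less CRABP1 had more ALDH1A3, and the intervals did not overlap for either gene. The share of all genes apart in this way was not counted. A further fibroblast-like group led by PRC1 and SPC24 (98 cells) had CRABP1 at 1182 CPM (1077 to 1294). Its ALDH1A3 level of 7.66 CPM (1.58 to 22.4) overlapped both. Endothelial-like cells of E90 had ALDH1A3 at 6.18 CPM (0.748 to 22.3), from 2 UMIs.

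At E120 the only dermal-like group was papilla-like (cluster 25, 206 cells), led by the papilla genes FGF7, RSPO2, RSPO3 and APOD, with summed papilla markers at 7614 CPM and dermal fibroblast markers at 2588 CPM. CRABP1 was at 2703 CPM (2616 to 2792) in it, the highest level of the 18 groups of E120, and ALDH1A3 was at 791 CPM (744 to 840). A UMI was found in 91.7% of its cells for CRABP1 and in 85.9% for ALDH1A3. Endothelial-like cells of E120 had 42.2 CPM (35.0 to 50.5) and 50.8 CPM (42.8 to 59.8), with a UMI in 16.5% and 16.8% of cells, at median depths of 6414 UMIs there and 5508 in papilla-like cells. Both levels in the papilla-like group were far above these.

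ALDH1A3 reached its highest level in an epithelial-like group. Cluster 17 (405 cells led by CNFN, KRT23, SERPINB13, MMP1 and S100A8) had ALDH1A3 at 1556 CPM (1527 to 1586) and CRABP1 at 1384 CPM (1357 to 1412). Cluster 24 (236 cells led by S100A12, KRT23 and S100A8, and by CRABP1 itself) had 1177 CPM (1110 to 1246) and 1640 CPM (1562 to 1722). It stayed unnamed because its median of 3438 UMIs was shallow and no listed epithelial marker was among its 10 leading genes. In clusters 17 and 24, dermal fibroblast markers were near 0, at 3.62 and 8.04 CPM, and papilla markers were at 44.3 and 26.1 CPM. Over the 18 groups the order was clusters 17, 24, 25, 5 and 8 for ALDH1A3 and clusters 25, 24, 17, 5 and 8 for CRABP1, with no overlap of intervals between neighbours among these 5. How often neighbouring groups were apart in this way over all genes was not counted.

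The hair matrix-like class held 3 groups that differed from each other. Cluster 5 (834 cells led by DCN, SHH and MT3) had ALDH1A3 at 525 CPM (510 to 540) and CRABP1 at 321 CPM (310 to 333). Cluster 8 (631 cycling cells, also with DCN) had 294 CPM (283 to 305) and 253 CPM (243 to 263). Cluster 10 (581 cycling cells without SHH among its markers) had 39.8 CPM (35.9 to 44.1) and 58.2 CPM (53.5 to 63.3), so its ALDH1A3 interval overlapped the endothelial-like one and its CRABP1 interval lay just above.

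Within cluster 5 the ALDH1A3 signal was uneven. Finer clustering put 581 of its cells, with 103 cells of cluster 17, into a matrix-like group led by KITLG, MT3, ALDH1A3 and NPTX2, at 963 CPM (941 to 985) of ALDH1A3 and 504 CPM (488 to 521) of CRABP1. It put 246 cells into an epithelial-like group led by SHH, CCL20 and CXCL14, at 33.0 CPM (26.6 to 40.4) and 112 CPM (99.7 to 125). The SHH-led group was thus at or below the endothelial-like level for ALDH1A3 and above it for CRABP1. ALDH1A3 is a leading gene of the KITLG group, so its high level there is part of that group's description.

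Shaft-like, inner root sheath-like and suprabasal-like cells of E120 had less of both genes than clusters 5, 8, 17 and 24. CRABP1 was at 20.8 CPM (18.3 to 23.5) in the 687 hair shaft-like cells and 21.9 CPM (19.8 to 24.2) in the 1134 inner root sheath-like cells, below the endothelial-like level. The shallow shaft-like cluster 27 (184 cells, median of 3235 UMIs) was an exception, at 73.7 CPM (54.9 to 97.0). ALDH1A3 was at 76.3 CPM (71.5 to 81.2) in shaft-like cells and 24.6 CPM (22.4 to 27.0) in inner root sheath-like cells. In the deepest shaft-like group (cluster 20, with GPRC5D and KRT85 leading, median of 25707 UMIs) ALDH1A3 was at 93.0 CPM (86.6 to 99.7) and CRABP1 at 21.0 CPM (18.0 to 24.3), so only ALDH1A3 stood above the endothelial-like interval. Suprabasal-like cells had 28.1 CPM (21.2 to 36.5) of ALDH1A3 and 13.5 CPM (8.93 to 19.7) of CRABP1.

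The dermal over matrix difference at E120 was larger for CRABP1 than for ALDH1A3. CRABP1 was at 2703 CPM in papilla-like and 208 CPM (203 to 213) in the 2046 matrix-like cells, a fold of 13.0 (12.5 to 13.5) and a log2 ratio of 3.69. ALDH1A3 was at 791 and 280 CPM (274 to 287), a fold of 2.82 (2.64 to 3.01) and a log2 ratio of 1.49. Of 6422 genes, 15.8% were at least 4-fold higher in papilla-like cells, and CRABP1 but not ALDH1A3 was among them, while 4.98% were at least 4-fold lower. The median of all genes was 0.09, and 508 and 1293 genes had larger ratios than CRABP1 and ALDH1A3. Against all 5773 epithelial-like cells of E120 the log2 ratios were 3.81 for CRABP1 and 1.68 for ALDH1A3, where 16.9% of 6340 genes were at least 4-fold higher and 4.48% lower in papilla-like cells.

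That ratio depends on which cells are called matrix. With each cell classed by its own markers the log2 ratios were 2.23 for CRABP1 and 0.18 for ALDH1A3, and at Leiden resolution 0.5 they were 3.05 and 0.64. Against cluster 17 the direction of ALDH1A3 was the other way, with 1556 CPM there and 791 CPM in papilla-like cells. At the main clustering, matrix-like cells and the other epithelial-like cells together hardly differed, with log2 ratios of 0.17 for CRABP1 and 0.29 for ALDH1A3. Of 5309 genes, 2.75% were at least 4-fold higher and 2.67% lower in matrix-like cells. These ratios varied widely over 10 alternatives, from -0.07 to 3.88 for CRABP1 and from 0.04 to 3.52 for ALDH1A3. The CRABP1 ratio of -0.07 came with scaling by the median of ratios. The other epithelial-like cells include cluster 17, which lies beside shaft-like and inner root sheath-like cells at low levels.

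Papilla RNA in other droplets was compared with these levels. Papilla markers in matrix-like cells summed to 1.01% of their papilla-like level and dermal fibroblast markers to 0.257%, whereas CRABP1 was at 7.69% and ALDH1A3 at 35.4% of the papilla-like level. In cluster 17 the same shares were 0.581% and 0.140% for the marker lists, 51.2% for CRABP1 and 197% for ALDH1A3. The part of free RNA in these levels was not tested. In clusters 5 and 17, 4 of the 8 and 2 of the 8 fibroblast markers and 4 of the 15 papilla markers each had no UMI. The papilla-like group had the 11 epithelial markers at 201 CPM, against 750 CPM in cluster 5, and the 9 matrix markers, which include BAMBI, at 3265 CPM. Of the papilla-like cells, 43 of 206 had a UMI of KRT5, KRT14 or SHH, and without them CRABP1 was at 2783 CPM and ALDH1A3 at 793 CPM.

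Between stages, dermal-like cells differed in both genes. From E60 to E90 CRABP1 went from 4396 to 1326 CPM, a log2 ratio of -1.73, and ALDH1A3 from 25.7 to 10.7 CPM, a log2 ratio of -1.19. Neither passed 4-fold, where 1.95% of 6611 genes were at least 4-fold lower at E90, and the median of all genes was 0.42. With scaling by the median of ratios the CRABP1 log2 ratio was -2.52, and with each cell classed by its own markers it was -2.20, both past 4-fold. From E90 to E120 CRABP1 went from 1326 to 2703 CPM (log2 ratio 1.03) and ALDH1A3 from 10.7 to 791 CPM, a fold of 73.7 (53.2 to 105). That ALDH1A3 ratio (log2 6.08) was exceeded by 21 of 6888 genes, of which 4.47% were at least 4-fold higher and 5.08% lower at E120. The E90 class is fibroblast-like at this clustering, and its papilla- or condensate-like cells at the finer clustering had ALDH1A3 at 24.5 CPM, so stage and composition cannot be told apart here.

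Set against E60, papilla-like cells of E120 had less CRABP1 and more ALDH1A3. The CRABP1 log2 ratio was -0.70, a fold of 0.615 (0.595 to 0.635), and the ALDH1A3 log2 ratio was 4.89, a fold of 30.7 (28.1 to 33.6). Of 6223 genes, 9.83% were at least 4-fold higher and 5.06% at least 4-fold lower at E120, and 87 genes had a larger ratio than ALDH1A3. The E60 class holds fibroblast-like groups, the tendon-like group, and clusters 4 and 16, which were closest to the condensate and papilla markers. In clusters 4 and 16 ALDH1A3 was at 1.90 and 0.229 CPM. The E120 class is papilla-like only, so stage, cell composition and dissociation cannot be told apart. Among E60 groups alone, ALDH1A3 reached 144 CPM in cluster 19, still below the 791 CPM of the papilla-like group. With each cell classed by its own markers the ALDH1A3 log2 ratio was 4.03.

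In epithelial-like cells too, ALDH1A3 was higher at E120 than at E90. ALDH1A3 was at 3.44 CPM at E90 and 246 CPM (243 to 249) in the 5773 epithelial-like cells of E120, a fold of 71.4 (51.3 to 103), where 2.39% of 6286 genes were at least 4-fold higher. CRABP1 was at 314 and 192 CPM (189 to 195), a log2 ratio of -0.70 beside a median of -0.31. At E120 epithelial-like cells held 89.5% of all ALDH1A3 UMIs of the library and papilla-like cells 4.49%, and the corresponding shares of CRABP1 were 74.8% and 16.4%. Of the epithelial-like UMIs, the 405 cells of cluster 17 held 9573 of 16657 for CRABP1 and 10762 of 21326 for ALDH1A3. No E90 group was named as matrix, shaft or inner root sheath, so stage, cell composition and dissociation cannot be told apart here either. Suprabasal-like cells were named in both libraries. Their ALDH1A3 level was 3.32 CPM (1.08 to 7.74) in the E90 library. In the E120 library it was 28.1 CPM (21.2 to 36.5), below the endothelial-like 50.8 CPM (42.8 to 59.8).

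**Figure D2:**
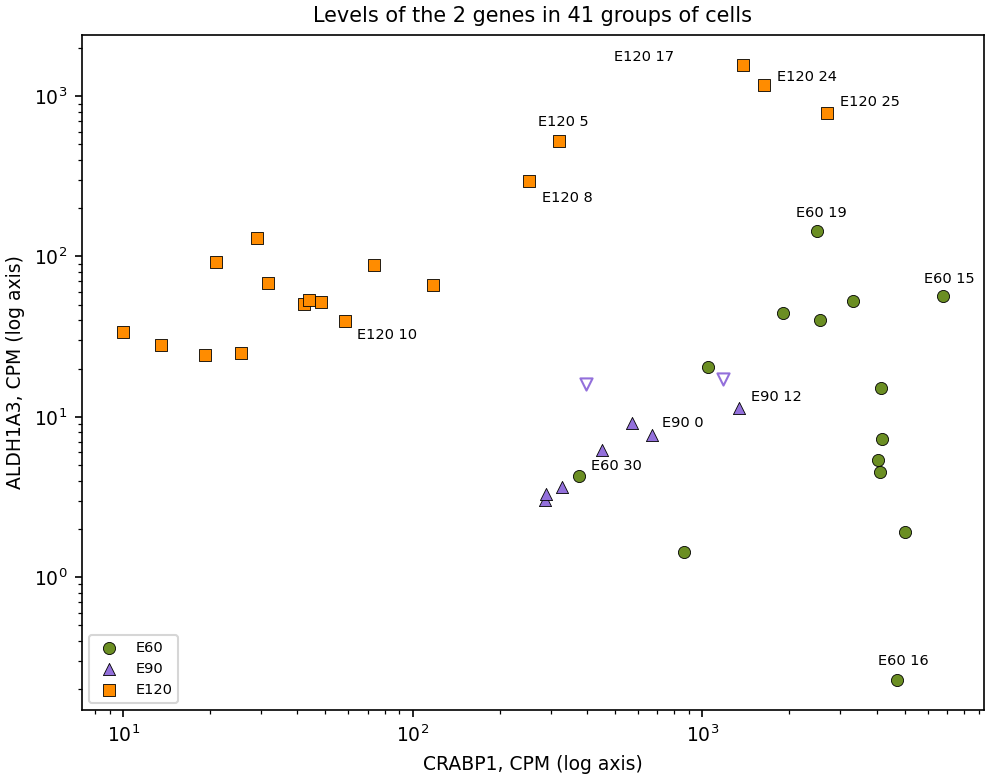
CRABP1 (x axis) against ALDH1A3 (y axis) in the 41 groups, both as CPM on log axes, coloured by library, with selected groups labelled by library and cluster number. Open triangles mark the upper limit of groups without an ALDH1A3 UMI. E120 groups run from low in both genes to high in both, while the 7 E60 groups with the most CRABP1 spread over ALDH1A3 levels from 0.229 to 56.9 CPM.

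Across groups of cells the relation of the 2 genes differed between libraries. Over the 18 groups of E120 the correlation of log2(CPM + 1) was 0.92 (Spearman 0.77), over the 14 groups of E60 it was 0.08 (-0.05) and over the 9 groups of E90 it was 0.09 (0.45). Over all 41 groups it was -0.18 (-0.22). These are descriptions over groups that share a library, its depth and its free RNA. At the finer clustering the values were 0.86 over 23 groups of E120, 0.41 over 15 groups of E90 and -0.07 over 22 groups of E60.

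**Figure D3:**
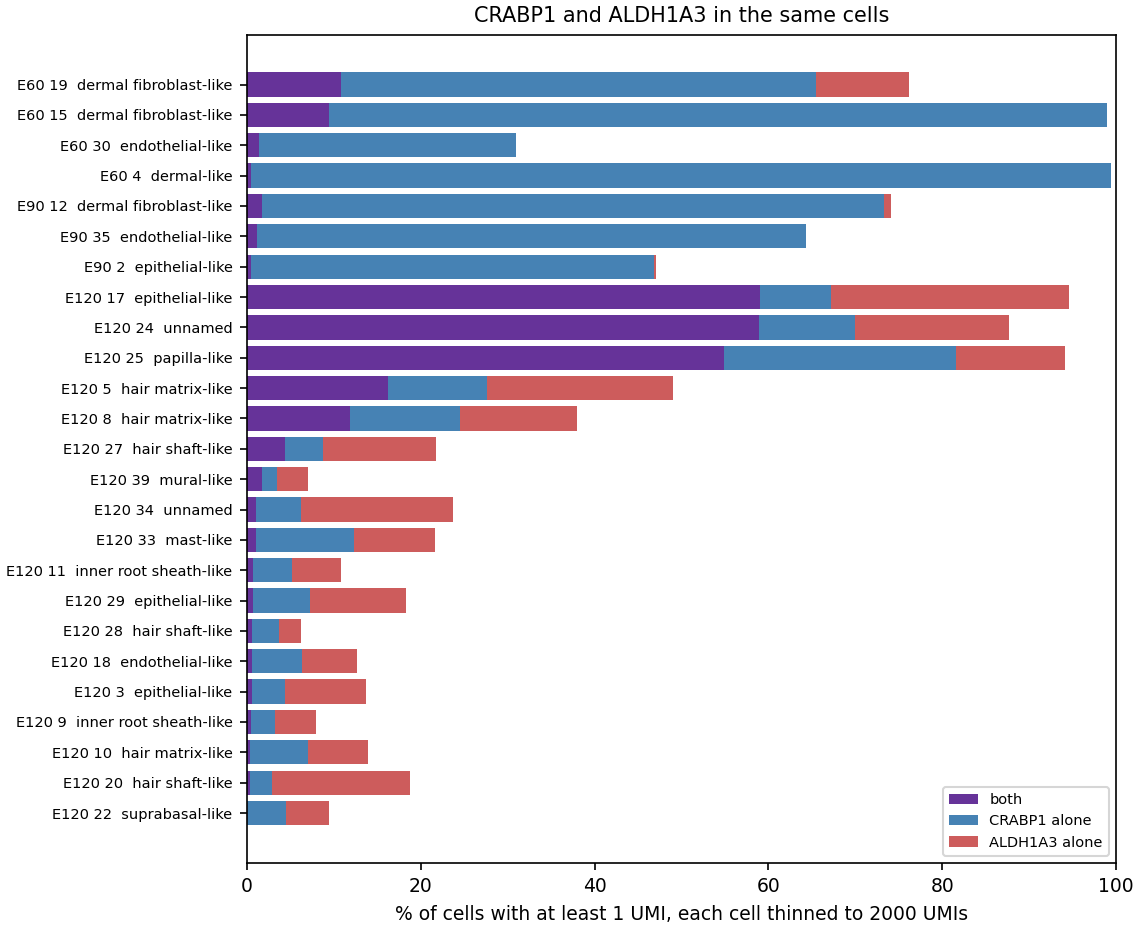
Share of cells with at least 1 UMI of CRABP1 and ALDH1A3 together (purple), of CRABP1 alone (blue) and of ALDH1A3 alone (red), after each cell was thinned to 2000 UMIs, for all E120 groups and selected groups of E60 and E90. Clusters 17, 24 and 25 of E120 have both in 59.0%, 58.9% and 54.9% of cells, and no other group shown exceeds 16.2%.

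Per-cell overlap was counted at 2000 UMIs per cell, and every cell was deep enough for that. In papilla-like cells 81.6% had CRABP1, 67.5% had ALDH1A3 and 54.9% (47.8 to 61.8) had both. The 113 cells with both matched the 113 that the 2 shares would give if they were independent. In other words 81.3% (73.8 to 87.4) of ALDH1A3 cells and 82.1% (70.8 to 90.4) of cells without ALDH1A3 had CRABP1. Without thinning 79.6% of papilla-like cells had both.

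In matrix-like cells the transcripts were found together more often than their shares would give. Of the 2046 cells 20.8% had CRABP1, 25.2% had ALDH1A3 and 10.4% (9.07 to 11.8) had both, which were 212 cells where 107 would follow from the shares. CRABP1 was in 41.1% (36.8 to 45.5) of ALDH1A3 cells and 14.0% (12.3 to 15.8) of the others. Without thinning 26.2% of matrix-like cells had both. In endothelial-like cells of E120, taken as a reference, 2 of 364 cells (0.549%, 0.0666 to 1.97) had both after thinning, where 1.58 would follow from the shares.

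The excess was present within groups and differed between them. In cluster 5, 135 cells had both against 86.6 from the shares, and CRABP1 was in 43.0% (37.4 to 48.7) of ALDH1A3 cells and 18.3% (15.0 to 21.9) of the others. In cluster 8, 75 cells had both against 39.3, with 46.9% (39.0 to 54.9) and 17.0% (13.7 to 20.7). In cluster 10, 2 cells had both against 2.96. Cluster 17 had both genes in 59.0% (54.0 to 63.8) of its cells, 239 against 235. The unnamed cluster 24 had both in 139 cells against 127. There CRABP1 was in 76.8% (70.0 to 82.7) of ALDH1A3 cells and 47.3% (33.7 to 61.2) of the others. The clusters were made without these genes, but each can still hold cells of unlike level. In the KITLG-led group of the finer clustering CRABP1 was in 47.4% of ALDH1A3 cells and 23.0% of the others, and in the SHH-led group in 6.25% and 12.0%. The KITLG-led group includes 103 cells of cluster 17, so its shares are not those of cluster 5 cells alone.

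The amount of CRABP1 also went with that of ALDH1A3 in matrix-like cells. Cells with 0, 1, 2 and 3 or more ALDH1A3 UMIs (1530, 204, 115 and 197 cells) had means of 0.250 (0.226 to 0.277), 0.721 (0.609 to 0.847), 0.939 (0.770 to 1.13) and 1.26 (1.11 to 1.43) CRABP1 UMIs of 2000. In papilla-like cells the means were 3.60 (3.16 to 4.08), 5.14 (4.43 to 5.92), 4.96 (4.35 to 5.63) and 6.85 (6.17 to 7.59) in 67, 37, 48 and 54 cells. So in papilla-like cells the share with CRABP1 was alike with and without ALDH1A3, while the mean was higher at 3 or more ALDH1A3 UMIs than at 0. In cluster 17 the means were 1.67 (1.35 to 2.05), 2.77 (2.38 to 3.22), 3.07 (2.67 to 3.52) and 2.42 (2.22 to 2.64), with no steady rise.

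**Figure D4:**
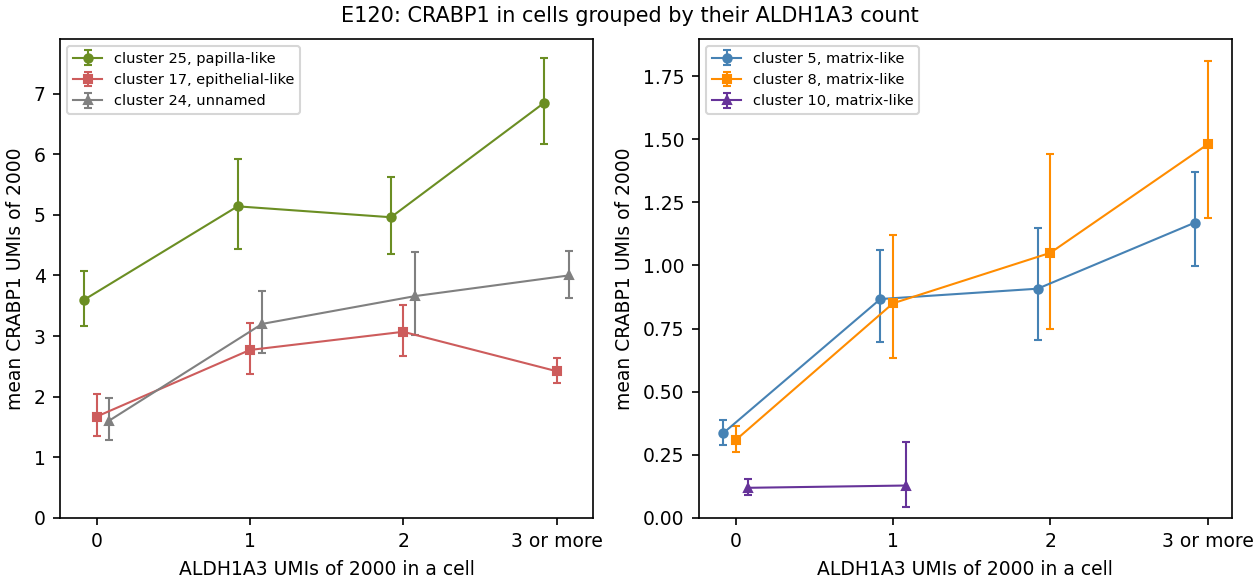
Mean CRABP1 UMIs per 2000 in E120 cells (y axis) grouped by the number of ALDH1A3 UMIs in the same 2000 (x axis), for the papilla-like cluster 25 and clusters 17 and 24 (left) and the 3 matrix-like groups (right). Lines at points are exact 95% Poisson intervals of the mean, and bins under 20 cells are not drawn. In clusters 5 and 8 the mean goes from 0.335 and 0.308 at 0 to 1.17 and 1.48 at 3 or more ALDH1A3 UMIs, whereas cluster 10 stays at 0.119 and 0.128.

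Over the whole dermal-like class of E60 the 2 transcripts were found together less often than their shares would give. That class pools groups of unlike level. In dermal-like cells 123 cells had both against 162, and CRABP1 was in 71.9% (64.6 to 78.5) of ALDH1A3 cells and 95.7% of the others. Cluster 19 held 76 of the 171 dermal-like cells with ALDH1A3. In it, 38 of 353 cells had both against 49.7, with CRABP1 in 50.0% (38.3 to 61.7) of ALDH1A3 cells and 69.7% (63.9 to 75.0) of the others. In cluster 15 nearly every cell had CRABP1, with or without ALDH1A3 (100% and 98.8%), so an association could not show. Finer clustering left 259 cells of the CCL11-led group with CRABP1 at 1172 CPM (1125 to 1219) and ALDH1A3 at 209 CPM (190 to 230), and in them 44.9% of ALDH1A3 cells and 55.8% of the others had CRABP1. At E90, 9 of 578 dermal-like cells had both, against 9.69.

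The other genes of the pathway were taken from a list of 45 retinoid genes, of which 29 were in the table under their symbol, 27 besides CRABP1 and ALDH1A3. Of these 27, 11 reached 50 CPM in a group. Of the other retinaldehyde dehydrogenases, ALDH1A1 peaked in myeloid-like cells of E60 at 157 CPM (129 to 190). It was at 65.8 CPM (57.9 to 74.4) in cluster 15, and ALDH1A2 reached 0.831 CPM at most. Outside E60 the highest level of ALDH1A1 was 27.1 CPM (23.7 to 30.9), in the shaft-like cluster 20. Upstream, RDH10, which makes retinal from retinol, was highest in the groups that were also highest in ALDH1A3 at E120 and E60, with 59.7 CPM (54.1 to 65.8) in cluster 17 and 59.4 CPM (51.4 to 68.2) in cluster 19.

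DHRS3, which reduces retinal back to retinol, was highest in papilla-like cells at 367 CPM (336 to 401) and was at 29.3 CPM in matrix-like cells. LRAT, which esterifies retinol for storage, was highest in the inner root sheath-like clusters 9 and 11, at 336 CPM (325 to 347) and 150 CPM (141 to 159), where both CRABP1 and ALDH1A3 were under 26 CPM. RDH12, another retinal reductase, was also highest in cluster 9, at 89.1 CPM. DHRS9, a retinol dehydrogenase, was highest in mast-like cells of E120 at 277 CPM (232 to 330).

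CRABP2, the other binding protein, shared the papilla-like peak of CRABP1 but not its matrix signal. It was at 1132 CPM (1076 to 1190) in papilla-like and 5.25 CPM in matrix-like cells, a log2 ratio of 7.50 against 3.69 for CRABP1. In dermal-like cells CRABP2 was at 212 CPM at E60, 881 CPM at E90 and 1132 CPM at E120, so it was higher at E90 than at E60 where CRABP1 was lower, and both were higher at E120 than at E90. In inner root sheath-like cells CRABP2 was at 193 CPM, where CRABP1 was at 21.9 CPM. CYP26B1, which degrades retinoic acid, was highest in the E90 fibroblast-like cluster 12 at 171 CPM (157 to 186). Endothelial-like cells of E90 had 120 CPM (85.7 to 165), an interval that overlapped that of cluster 12. The unnamed cluster 0 had 110 CPM (105 to 116), and epithelial-like cells of E90 had 55.2 CPM. At E120 CYP26B1 was highest in the shaft-like cluster 28 at 155 CPM (142 to 168), the group with the least CRABP1 (9.97 CPM).

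Among receptors, RXRG was highest in glial-like cells of E60 at 258 CPM (217 to 304) and was at 122 CPM (115 to 130) in the DKK1 cluster 4, and in papilla-like cells it was at 1.48 CPM. RARG and RARB stayed under 50 CPM in every group. Of the genes named as retinoid-responsive, RARRES2, which encodes the chemoattractant chemerin, was highest in mural-like cells at 787 CPM (692 to 890) and was at 428 CPM in papilla-like against 3.85 CPM in matrix-like cells. RARRES1 was highest in myeloid-like cells of E60 at 147 CPM (120 to 179).

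**Figure D5:**
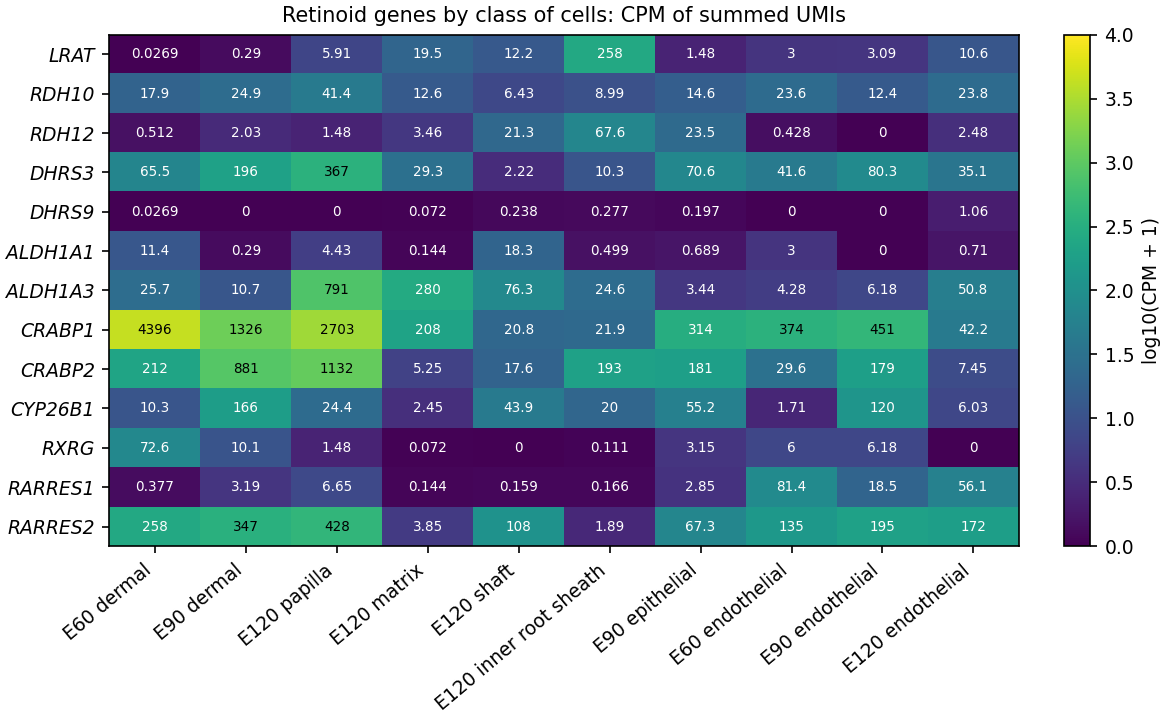
CPM of the 13 retinoid genes that reached 50 CPM in a group (rows, CRABP1 and ALDH1A3 included) in classes of cells (columns), printed in each cell and coloured by log10(CPM + 1). Each row is read across, since levels of different genes are not on 1 scale. CRABP2 and RARRES2 have 5.25 and 3.85 CPM in matrix-like cells, where CRABP1 and ALDH1A3 have 208 and 280 CPM.

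Of the list, 13 genes, CRABP1 and ALDH1A3 included, had at least 10 CPM in papilla-like or matrix-like cells. Of these, 7 were at least 4-fold higher in papilla-like cells and 0 at least 4-fold lower, where 15.8% and 4.98% of all genes were, with a median log2 ratio of 2.84 beside 0.09 over all genes tested. LRAT had the lowest ratio, at -1.57. Between dermal-like cells of E60 and E120, 5 of 13 genes were at least 4-fold higher and 1, RXRG, was lower at E120, where 9.83% and 5.06% of all genes were, with a median of 1.17 beside 0.28. ALDH1A3 had the largest ratio of these 13, followed by RARG at 3.35 and DHRS3 at 2.47. A gene enters these counts through the side on which it is high, so they describe the list only.

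The genes most like each in level over the 41 groups were named by the correlation of log2(CPM + 1), among 4215 genes with a symbol that reached 50 CPM in a group. For CRABP1 they were TMEM132C (0.87), CDH6 (0.86), LSAMP (0.85), DCN (0.85) and GPR153 (0.84). For ALDH1A3 they were BAMBI (0.87), NPTX2 (0.79), SLC3A2 (0.73), ID1 (0.73) and ETFB (0.72). Each group shares depth and free RNA with the others of its library. BAMBI, a pseudoreceptor that dampens BMP and TGF-beta signalling, was at 3034 CPM in papilla-like cells and 1603 CPM in cluster 17, and was also at 1787 CPM in the shaft-like cluster 20, where ALDH1A3 was at 93.0 CPM. DCN, a collagen-binding proteoglycan gene, was at 11150 CPM in cluster 15 of E60, the group with the most CRABP1. At E120 it was higher in the matrix-like cluster 5 (1629 CPM) than in papilla-like cells (321 CPM), the reverse of CRABP1. Within single libraries most of these genes were not among the 5 most alike: 2, 1 and 0 of the 5 for CRABP1 were at E60, E90 and E120, and 0, 0 and 1 for ALDH1A3. Over the 18 groups of E120 alone, the gene most like CRABP1 was ALDH1A3 and the gene most like ALDH1A3 was CRABP1 (0.92), followed for both by CRYM (0.83 and 0.85).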

How the data were processed

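Values for 16739 genes in 20676 cells were deposited by the authors as natural log values, ln(1 + 10000 × UMIs / cell total), as the values themselves show. The design text states 19705 cells. Cell Ranger 3.0.2 is named in the submitters' processing notes, and the genome build, annotation and cell filters are not given in the sources used here. UMI counts were recovered by inversion (100% of nonzero values whole within 0.01) and used where raw counts had been planned. Libraries held 65049552, 30277663 and 93403291 UMIs, so a floor of 3 counts is 0.0461, 0.0991 and 0.0321 CPM.

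Members, gene lists and comparisons were chosen with earlier results of these data known. All cells were clustered together (2000 variable genes without the retinoid list, 30 principal components, 20 neighbours, Leiden resolution 1; leidenalg 0.10.2, igraph 0.11.9, scikit-learn 1.9.0, numpy 2.4.6, scipy 1.17.1, Python 3.11.15). Groups were named from marker lists of epithelial, hair matrix, shaft, inner root sheath, dermal, papilla, endothelial, mural, myeloid, mast, glial, muscle and tendon cells. The tendon list was counted under the dermal class. A marker counted when in 10% of cells, at 2 times its median over groups and 0.5 times its library's level, and a name needed 3. A group stayed unnamed where another class had more markers than its own class among the group's 10 leading genes. It also stayed unnamed where at least 3 of the 10 were mitochondrial or haemoglobin genes. The last rule was for shallow groups, with a median under 1/3 of the library's median UMIs and no marker of their class among the 10. The scoring was chosen with the data in view, after an earlier version had named groups from free RNA.

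Ratios are log2 of CPM + 1, and genes with 10 CPM or more in the higher sum form the background. Cells were thinned to 2000 UMIs without replacement. No test was made, as each stage is 1 library. Intervals are exact Poisson or Clopper-Pearson at 95%, and cover counting error only. Doublets were scored with a script of Scrublet's algorithm (expected rate 6%), which called 5.90% of cells at E60, 0.0433% at E90 and 1.57% at E120. It did not work at E90, and no cell was removed in the main analysis. Retinoid genes with at least 50 CPM in a group, and the 5 genes most correlated with each of the 2, are named. The inversion, ratios and thinning were tested on simulated data. No sequences are shown, since none were used here.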

Additional observations from a re-analysis of the deposited data

How the results depend on the processing

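No paired analysis was possible because each stage is 1 library and the labels carry no replicate numbers. All 6 main log2 ratios (dermal over epithelial at E90, dermal over matrix at E120, and E120 over E60 in dermal-like cells, each for CRABP1 and ALDH1A3) kept their sign under the 9 to 12 alternatives of each. They are given below in that order where they moved beyond counting error, and the causes of these shifts were not tested. At Leiden resolution 0.5 CRABP1 moved from 2.08 to 2.49 at E90, CRABP1 and ALDH1A3 from 3.69 to 3.05 and from 1.49 to 0.64 over matrix, ALDH1A3 from 4.89 to 5.29 over E60, and the share of matrix-like cells with both from 10.4% to 16.5%. At resolution 2 the matrix ratios were 3.45 and 1.06, CRABP1 over E60 was -0.65 and the share was 13.7%. With cells classed by their own marker counts, CRABP1 was 1.04 at E90, the matrix ratios were 2.23 and 0.18, the ratios over E60 were -0.59 and 4.03, and the share was 27.2%. With cells under 1000 genes or above 10% mitochondrial counts left out, CRABP1 was 2.64 at E90 and ALDH1A3 4.70 over E60. Without called doublets CRABP1 was 3.83 over matrix and -0.56 over E60. With equal weight for each cell the values were 1.79 for CRABP1 at E90, 3.56 and 1.39 over matrix and -0.80 for CRABP1 over E60. A pseudocount of 10 CPM gave ALDH1A3 0.62 at E90 and 4.49 over E60. Scaling by the median of ratios gave CRABP1 1.81 at E90, 3.37 and 1.17 over matrix, -1.23 and 4.38 over E60, and turned CRABP1 in matrix-like over other epithelial-like cells from 0.17 to -0.07. Unthinned, 79.6% of papilla-like and 26.2% of matrix-like cells had both, and at 1000 UMIs 36.9% and 5.67%. Of the 5 genes most like CRABP1, 3 remained with Spearman's correlation, and of those most like ALDH1A3, 3 with Spearman's and 2 at resolution 2. Added after seeing the data were removal of the 6% highest doublet scores (3.92 and 1.60 over matrix, -0.54 for CRABP1 over E60), matrix-like groups with SHH only (3.24, 0.96 and a share of 14.3%), unnamed E60 groups counted as dermal-like (ALDH1A3 5.29 over E60), and papilla-like cells without a UMI of KRT5, KRT14 or SHH, which moved no value of the 2 genes beyond counting error. Also added was the E60 dermal-like class without its tendon-like group, where the ratios over E60 were -0.74 and 4.94. A wider list with KRT35, KRT85 and LEF1 left 2 of 206 papilla-like cells and gave no value. Of the other values, 403 stayed within counting error, 214 moved beyond it and 1 changed sign. Matrix-like over other epithelial-like cells reached log2 ratios of up to 3.88 for CRABP1 and 3.52 for ALDH1A3, from 0.17 and 0.29. ALDH1A3 at E90 rests on 196 UMIs, which limits its ratios there.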
